A study of Mus musculus with 3 samples.

Results

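The contacts described are cis di-tags of Capture Hi-C (CHi-C) libraries that joined a strongly covered region of a mouse chromosome to another region of the same chromosome. A di-tag is a read pair that records the ligation of a pair of HindIII restriction fragments. Each of chromosomes 1 to 19 was divided into bins of 10 kb, and a bin was called captured if its di-tag ends reached the 90th percentile of covered bins in each of Samples 3, 4 and 5. A contact was a di-tag with exactly 1 end in a captured bin and with 20 kb to 2 Mb between its ends. Of 227422 covered bins, 17920 were captured. The contacts numbered 785036 of 9376907 di-tags in Sample 3, 530780 of 8596799 in Sample 4 and 434212 of 8821161 in Sample 5. They made up 8.37%, 6.17% and 4.92% of the di-tags of these libraries, a mean of 6.49% ± 1.75 (SD, n = 3).

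The cell type label of all 3 libraries is embryonic stem cells, cultured cells that can form all tissues of the embryo, and the strain is C57BL/6. No treatment, time or age is given, and the libraries were fixed with 2% formaldehyde and digested with HindIII in the same way. The labels of Sample 3 conflict, since they name foetal liver cells as its source. The paper describes all of these libraries as made from embryonic stem cells. Di-tags carry no expression values, so neither label could be checked against marker genes. Sample 3 stood apart from the other libraries, so values are given for each library, and the counts of calls in all 3 libraries also for Samples 4 and 5 alone. No label says that the libraries came from separate cultures, and tests over libraries may therefore measure technical spread only. Tests on di-tag counts cover counting error only.

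Hi-C joins pieces of DNA that lay close to each other in the nucleus, and CHi-C enriches the joined DNA for chosen fragments with RNA baits. Regions that lie near each other along a chromosome meet more often than distant ones. Mammalian chromosomes are also folded into domains whose regions meet each other more often than regions outside the domain. A region close to the edge of such a domain is known to make more contacts towards the inside of the domain than across the edge. Distal regulatory elements such as enhancers can meet several promoters of their domain. The list of baits was not used here and no annotation of the genome build of the positions (mm9) was at hand. A captured bin is thus a bin of high coverage, and no gene is named at any bin.

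Captured bins were chosen by their coverage, which is a description and not a result. The threshold was 178 di-tag ends for Sample 3, 151 for Sample 4 and 152 for Sample 5. Just inside it, 176, 227 and 257 bins held exactly this number, and just outside, 154, 225 and 237 bins held 1 end fewer. In all, 17920 bins reached the threshold in 3 libraries, 4472 in 2 and 5504 in 1. Captured bins had a median of 323, 263 and 261 ends, against 42, 46 and 49 in the other covered bins. They were 7.94%, 7.93% and 7.92% of the covered bins and held 35.9%, 31.4% and 30.3% of all ends. The captured bins formed 12945 runs of adjacent bins. Of these runs 9595 (74.1%) were a single bin, and the longest had 11 bins. Successive captured bins of a chromosome started a median of 40 kb apart (quartiles 10 and 100 kb), with adjacent bins of a run included. A captured bin had a median of 50 other captured bins within 2 Mb.

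Of the cis di-tags with ends 20 kb to 2 Mb apart, the contacts made up 50.9% in Sample 3, 45.1% in Sample 4 and 44.2% in Sample 5. Di-tags with both ends in captured bins made up 16.9%, 12.9% and 12.5% of this window, and di-tags with no captured end 32.1%, 41.9% and 43.3%. A captured bin had a median of 38 contacts in Sample 3, 26 in Sample 4 and 22 in Sample 5. The counts ranged from 2 to 366, from 1 to 159 and from 0 to 137, and 2 captured bins had no contact in Sample 5. The non-captured end lay in a bin that reached the threshold in 1 or 2 of the libraries in 19.9%, 16.8% and 16.4% of the contacts. All 4 strand combinations were found in similar shares, from 24.6% to 25.5% of the contacts in Sample 3 and from 23.6% to 26.8% in Samples 4 and 5. Cis di-tags of any distance were 48.0%, 32.6% and 28.4% of all di-tags, so that Sample 3 had the highest share in cis.

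The contacts reached farther in Sample 3 than in Samples 4 and 5. The median distance between both ends was 303 kb in Sample 3, 184 kb in Sample 4 and 182 kb in Sample 5 (mean 223 ± 69.6 kb, SD, n = 3). The middle 50% of contacts spanned 105 to 768 kb in Sample 3, 66.7 to 465 kb in Sample 4 and 65.1 to 466 kb in Sample 5. Samples 4 and 5 were nearly alike in every distance class. Contacts of 20 to 50 kb were 12.0%, 18.9% and 19.4% of the contacts, and those of 1 to 2 Mb were 18.0%, 9.28% and 9.43%. The share of 200 to 500 kb was about the same in all 3 libraries (24.1%, 24.4% and 24.1%).

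The number of contacts per kb of distance declined more steeply at long than at short distance in each library. Between 50 and 200 kb the slope of the log count per kb on the log distance was -0.65 in Sample 3, -0.76 in Sample 4 and -0.79 in Sample 5. Between 200 kb and 2 Mb it was -0.999, -1.44 and -1.43. Sample 3 therefore declined least over both ranges. These slopes describe each library and were not tested.

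Contacts from captured bins reached slightly less far than cis di-tags without a captured end. The latter had a median distance of 316, 219 and 212 kb in the same window, so the contacts were shorter by 12.8 kb in Sample 3, by 35.4 kb in Sample 4 and by 30.0 kb in Sample 5. The mean difference was -26.1 ± 11.8 kb (SD, n = 3), with the same sign in each library (two-sided exact test by sign flips over libraries, p = 0.25, the smallest value that 3 libraries allow). Without Sample 3 it was -32.7 kb. Di-tags between pairs of captured bins were shorter still, with medians of 233, 129 and 127 kb. The contacts exceeded them by 70.8 kb in Sample 3, 54.3 kb in Sample 4 and 54.7 kb in Sample 5, or by 59.9 ± 9.41 kb on average (SD, n = 3), again in 3 of 3 libraries (two-sided p = 0.25, exact test by sign flips). The order of the 3 classes was the same in each library, but this number of libraries cannot bring either difference under a threshold of 0.05. The medians were not corrected for the spacing of the captured bins, which all 3 libraries share, and its part in this order was not tested.

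**Figure D1:**
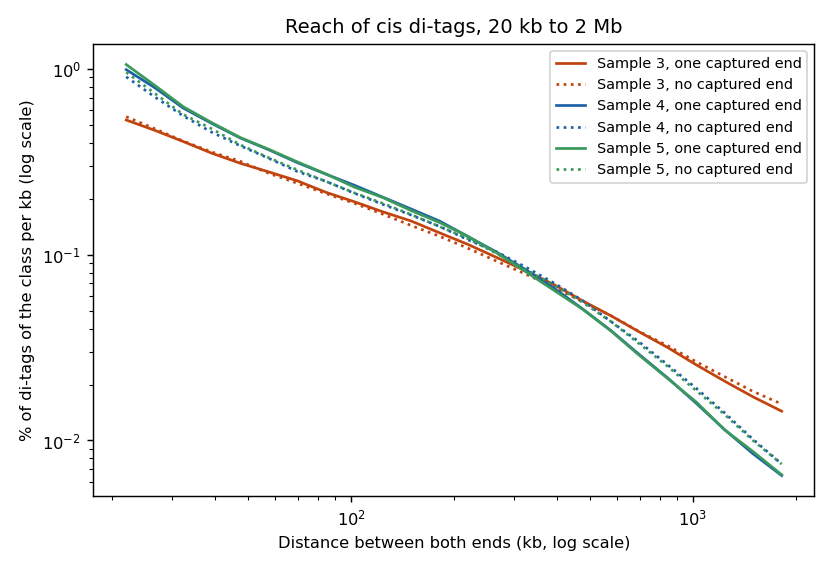
Share of the di-tags of a class per kb of distance (y axis, log scale) against the distance between both ends in kb (x axis, log scale) for contacts with 1 captured end (solid) and for cis di-tags with no captured end (dotted), 1 colour per library. Samples 4 and 5 lie on each other and fall faster than Sample 3 beyond 200 kb, with slopes of -1.44 and -1.43 against -0.999.

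Single captured bins differed widely in reach. The median distance was computed for each of 8995 captured bins that had at least 20 contacts in each library and lay at least 2 Mb from the first and last covered bin of the chromosome. From the 5th to the 95th percentile of these bins, it ran from 151 to 570 kb (Sample 3), 81.8 to 381 kb (Sample 4) and 80.8 to 387 kb (Sample 5). The remaining 8925 captured bins had fewer contacts or lay nearer to an end, and no value is given for them.

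Reach was shorter where captured bins were dense in Samples 4 and 5, but not in Sample 3. The 8995 bins were split into quartiles by the number of other captured bins within 2 Mb: 0 to 25, 26 to 44, 45 to 72 and 73 to 178. In Sample 4 the median reach was 220, 202, 177 and 157 kb from the sparsest to the densest quartile. Sample 5 had 214, 193, 178 and 156 kb. Sample 3 instead had 304, 313, 317 and 322 kb. The contacts leave out di-tags between captured bins. With all cis di-tags of these bins in the window, the medians were 213, 196, 166 and 151 kb in Sample 4 and 208, 185, 166 and 149 kb in Sample 5, and 295, 299, 296 and 310 kb in Sample 3. The medians of Samples 4 and 5 were lower in each denser quartile in both calculations, and those of Sample 3 were not. Bins are not replicates, and no test of the difference between libraries was made.

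Among chromosomes, the shortest contacts in Samples 4 and 5 were on chromosome 11, with a median of 166 kb in both. This chromosome had the most captured bins, 14.8 per Mb. Its contacts in Sample 3 had a median of 309 kb and ranked 5 of 19 from the longest. The longest contacts in Samples 4 and 5 were on chromosome 13 (209 and 207 kb). In Sample 3 the longest were on chromosome 2 (327 kb) and the shortest on chromosome 3 (279 kb).

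**Figure D2:**
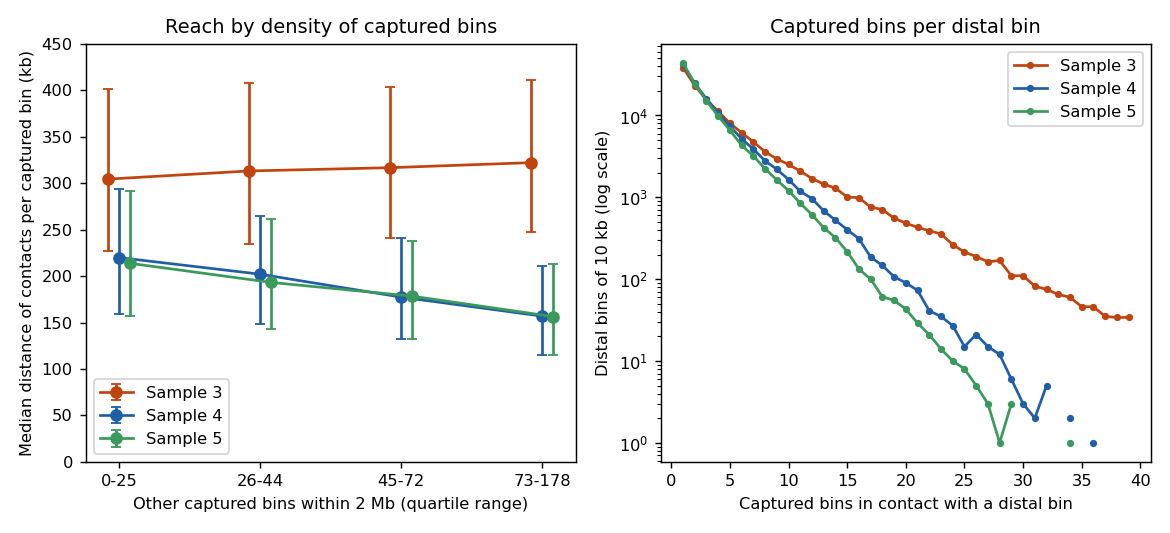
Left, median distance of contacts per captured bin in kb by quartile of the number of other captured bins within 2 Mb (points, median over bins; bars, quartiles over bins). Right, number of distal bins of 10 kb (log scale) in contact with a given number of captured bins, for up to 39 captured bins. Reach falls from 220 to 157 kb in Sample 4 but not in Sample 3. Sample 3 has more distal bins that meet many captured bins, but also the most contacts, for which the numbers are not adjusted.

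Only 9 captured bins had at least 100 contacts in each library, and the 4 with the longest and the 4 with the shortest reach are described. Among the 9, the bin chr2:147180000-147189999 had the longest reach on average. Its 119, 126 and 106 contacts had a median distance of 413 kb in Sample 3, 276 kb in Sample 4 and 313 kb in Sample 5. The bin chr11:67010000-67019999 had 137, 159 and 137 contacts with medians of 430, 171 and 215 kb. The bin chr10:76030000-76039999 had 166, 149 and 113 contacts with medians of 411, 213 and 242 kb. At chr8:127750000-127759999 there were 102, 112 and 104 contacts with medians of 418, 214 and 176 kb. In all 4 of these bins Sample 3 had the longest reach.

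Among the 9, the bin with the shortest mean reach over 3 libraries was chr8:24250000-24259999, with 225, 124 and 120 contacts and medians of 156, 172 and 178 kb. It was the only 1 of these 8 bins in which Sample 3 had the shortest reach, and its place rests on Sample 3. The mean over Samples 4 and 5 was 174.8 kb, the longest of the 4 short bins, whose lowest was 150 kb at chr2:157380000-157389999. With captured bins defined by the 85th percentile, its mean was 209 kb. The other short bins were chr11:50530000-50539999 (medians 201.03, 173 and 176 kb), chr5:149760000-149769999 (255, 157 and 162 kb) and chr2:157380000-157389999 (289, 135 and 165 kb).

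Contacts were on average even on both sides of a captured bin. Over the 8995 bins, 50.0% of the contacts in Sample 3 had the other end at a higher position, 49.8% in Sample 4 and 49.7% in Sample 5. Single bins departed from this. The share at higher positions had a 5th and a 95th percentile of 31.2% and 68.8% (Sample 3), 25.6% and 74.5% (Sample 4) and 25% and 75% (Sample 5). A part of such a departure follows from which neighbours are captured and from stretches with few reads. An expected share was therefore computed for each bin from the decline with distance in the library and from the visibility of the non-captured bins on each side, measured by their trans di-tag ends. The 5th and 95th percentiles of the expected shares were 42.1% and 57.7%, 40.96% and 58.8%, and 40.9% and 58.9%.

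The difference between the observed and the expected share, here called sidedness, varied more between captured bins than counting error does. A bin is said to lean to the side on which its share exceeds the expected one, whether or not it passed the test. Its SD over bins was 10.5 percentage points in Sample 3, 13.7 in Sample 4 and 14.1 in Sample 5, against 7.44, 8.32 and 9.02 points from sampling alone. In a two-sided exact binomial test for each bin, 365 bins passed for Sample 3 (4.06% of those tested), 791 for Sample 4 (8.79%) and 520 for Sample 5 (5.78%), at a Benjamini-Hochberg adjusted p under 0.05. Leans to higher positions were called in 187 (2.08%), 409 (4.55%) and 256 (2.85%) bins, and leans to lower positions in 178 (1.98%), 382 (4.25%) and 264 (2.93%). At an unadjusted p under 0.05, 1408 (15.7%), 1972 (21.9%) and 1744 (19.4%) bins passed. The calls were about even between both directions in each library. The test takes each di-tag as independent, and it compares the side shares of 1 library with a model, not conditions.

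Samples 4 and 5 shared more calls with each other than with Sample 3, though fewer than 1 in 2 of the calls of either. Of the 791 bins called in Sample 4, 241 (30.5%) were also called in Sample 5, where they were 46.3% of the calls, and all 241 leaned the same way. Sample 3 shared 53 calls with Sample 4 (14.5% of its own, 6.70% of those of Sample 4) and 43 with Sample 5 (11.8% and 8.27%). In 50 of the 53 and 42 of the 43 the direction was the same. Whether called or not in the second library, the bins called in Sample 4 leaned the same way in Sample 5 in 96.5% of cases. For bins called in Sample 3 this was 75.6% in Sample 4 and 74.2% in Sample 5. Over all 8995 bins the side was the same in 71.1% for Samples 4 and 5, 57.0% for Samples 3 and 4 and 56.5% for Samples 3 and 5.

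Over all 8995 bins, the sidedness in Sample 4 correlated with that in Sample 5 with r = 0.62 and with that in Sample 3 with r = 0.22. For Samples 3 and 5 r was 0.21. These correlations are across bins of the same libraries, which share the coverage used for the expected shares, and bins are not independent replicates. The sampling error of the counts would limit r to 0.56 between Samples 3 and 4, 0.54 between Samples 3 and 5 and 0.61 between Samples 4 and 5 if the underlying shares were the same. In 669 bins with at least 50 contacts in each library r was 0.80 for Samples 4 and 5, 0.35 for Samples 3 and 4 and 0.33 for Samples 3 and 5. When each bin was thinned to equal numbers of contacts in every library, r was 0.59, 0.18 and 0.19. With an expected share of 0.5 for every bin, r was 0.67 for Samples 4 and 5, 0.32 for Samples 3 and 4 and 0.31 for Samples 3 and 5. Sample 3 was the less alike in each of these calculations.

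**Figure D3:**
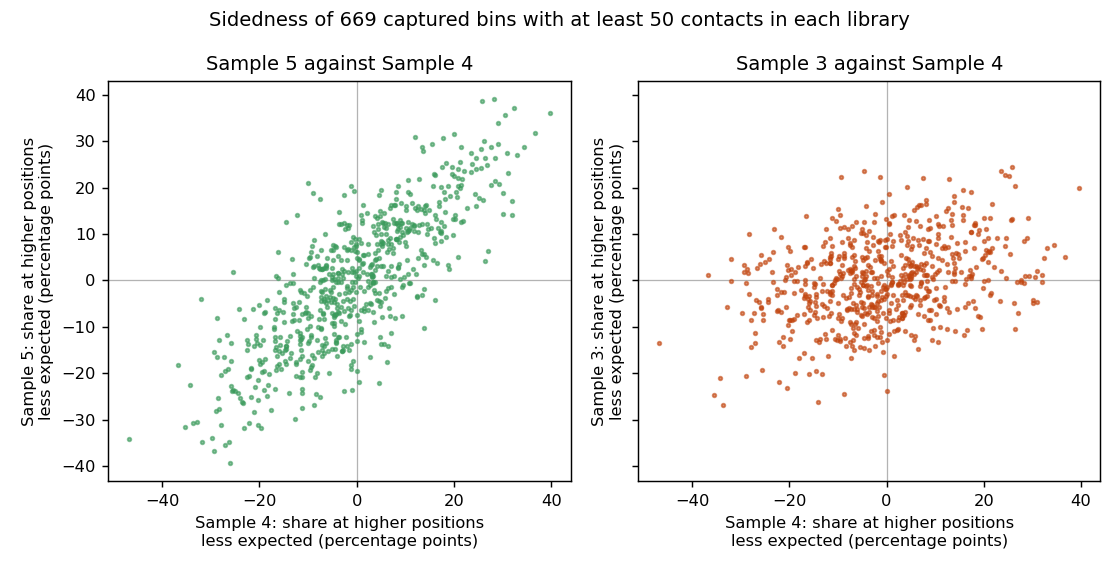
Share of contacts at higher positions less its expected share, in percentage points, for 669 captured bins with at least 50 contacts in each library; each point is 1 captured bin. Left, Sample 5 (y axis) against Sample 4 (x axis), r = 0.80. Right, Sample 3 (y axis) against Sample 4 (x axis), r = 0.35.

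The difference between libraries was tested directly with Fisher's exact test on the counts of each bin at higher and lower positions. Between Samples 3 and 4, 182 bins differed (2.02%), and between Samples 3 and 5, 156 bins (1.73%), at an adjusted p under 0.05. Between Samples 4 and 5 no bin differed (0%). An unadjusted p under 0.05 was found in 1382 bins (15.4%) for Samples 3 and 4, 1249 (13.9%) for Samples 3 and 5 and 370 (4.11%) for Samples 4 and 5. Sample 3 differed from both others in 55 of the 8995 bins. Its share at higher positions was the higher in 28 and the lower in 27 of them, by a median of 38.3 percentage points (25.2 to 56.1). In 47 of the 55, Sample 3 leaned to the opposite side from both others, which follows in part from their choice by a large difference.

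The contacts of 4 of these bins show the size of the difference. At chr1:59300000-59309999, 10 of 32 contacts in Sample 3 went to higher positions, against 41 of 47 in Sample 4 and 35 of 40 in Sample 5. The expected shares were 52.8%, 53.8% and 53.9%, and the adjusted p of Fisher's exact test was 0.000431 against Sample 4 and 0.00180 against Sample 5. At chr9:66890000-66899999, 28 of 106, 27 of 32 and 15 of 21 contacts went to higher positions. The bin chr10:95620000-95629999 had 10 of 35, 29 of 35 and 30 of 39. In these 3 bins Sample 3 leaned to lower and the other libraries to higher positions. The bin chr4:125730000-125739999 ran the other way, with 37 of 45 contacts at higher positions in Sample 3, 11 of 27 in Sample 4 and 5 of 20 in Sample 5. All 4 were chosen for this difference after their values were seen, so the values are a description.

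Across all 3 libraries 23 captured bins were called in the same direction (0.256% of those tested), 8 to higher positions (0.0889%) and 15 to lower positions (0.167%). The split depended on the setting. The number of bins tested was not held fixed across the settings, so only the balance of both directions is compared. Calls to lower positions were also the more frequent at the 85th percentile (9 higher and 12 lower), with a window of 20 kb to 1 Mb (15 and 18), with at least 50 contacts (6 and 11), with equal visibility (17 and 21) and at an adjusted p under 0.001 (1 and 2). They were not at the 95th percentile (24 and 24), with bins of 20 kb (29 and 21), with a window of 50 kb to 2 Mb (15 and 14), with an expected share of 0.5 (41 and 32) or with all cis di-tags against 0.5 (98 and 89). Their mean sidedness over libraries was 21.5 to 39.0 percentage points in size. They lay on 12 chromosomes and had 21 to 225 contacts in a library. Without Sample 3, 243 of 9215 bins were called (2.64%), 126 to higher and 117 to lower positions. Without Sample 4, 42 of 9534 were called (0.441%), and without Sample 5, 50 of 11563 (0.432%). Of the 243 bins, 241 had at least 20 contacts in Sample 3, and 171 of them (71.0%) leaned the same way there. Their median sidedness towards the called side was 27.4 points in Sample 4 and 28.9 in Sample 5, by which they were chosen, and 4.43 points in Sample 3, which the choice did not use. When the contacts were summed before the test, 1895 bins (21.1%) were called with 3 libraries and 1942 (21.6%) with Samples 4 and 5. Of the 1895, 1624 leaned the same way in each library, but all 3 libraries were used to choose them. Of the 1942, 66.1% leaned the same way in Sample 3, whose side the choice did not use. Over all 8995 bins the side was the same in 57.0% for Samples 3 and 4 and in 56.5% for Samples 3 and 5.

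Only 1 of the 23 bins had at least 100 contacts in each library. This was chr8:24250000-24259999. In Sample 3, 61 of its 225 contacts went to higher positions (27.1%, with 53.4% expected), in Sample 4 45 of 124 (36.3%, with 50.3% expected) and in Sample 5 31 of 120 (25.8%, with 50.1% expected). The share was below the expected share in 3 of 3 libraries, by 21.5 ± 6.59 points (SD, n = 3). The adjusted p of the exact binomial test was 1.9e-11, 0.032 and 4.2e-05.

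The bins that follow were chosen among the 23 after their values were seen. The bin chr2:109740000-109749999 had the strongest lean to higher positions, with 20 of 24, 26 of 29 and 17 of 21 contacts there (39.0 ± 4.57 points above the expected share, SD, n = 3). The bin chr5:138180000-138189999 had the strongest lean to lower positions, with 13 of 66, 5 of 28 and 4 of 27 contacts at higher positions. The adjacent bins chr7:123170000-123179999 and chr7:123180000-123189999 were both called. Of their contacts 18 of 111, 18 of 68 and 7 of 40, and 30 of 121, 19 of 108 and 16 of 78, went to higher positions. Both leaned to lower positions in every library. The bin chr6:38600000-38609999 leaned to higher positions, with 106 of 142, 58 of 73 and 35 of 40 contacts.

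Side counts of the bins named for their reach differed from bin to bin. At chr2:147180000-147189999, 61 of 119, 76 of 126 and 60 of 106 contacts went to higher positions, with 45.5%, 45.6% and 45.5% expected. At chr2:157380000-157389999, 66 of 141 contacts went to higher positions in Sample 3, but 19 of 108 in Sample 4 and 20 of 106 in Sample 5. At chr10:76030000-76039999 the counts were 93 of 166, 110 of 149 and 81 of 113, with 56.9%, 57.8% and 57.7% expected. At chr8:127750000-127759999 they were 66 of 102, 85 of 112 and 70 of 104. The bin chr11:67010000-67019999, which had the highest smallest count of contacts, leaned to neither side past the threshold in any library (60 of 137, 73 of 159 and 67 of 137 contacts at higher positions, with 41.9%, 40.7% and 40.7% expected).

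**Figure D4:**
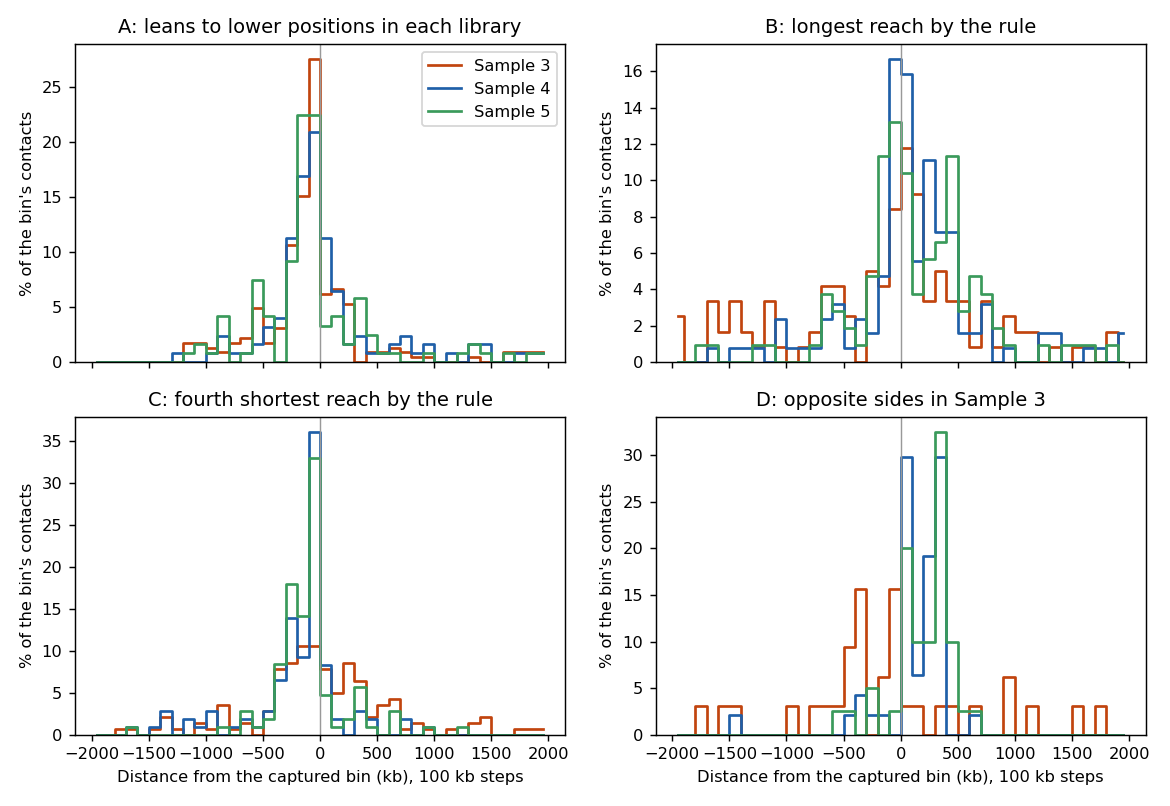
Share of the contacts of a captured bin (y axis, %) by distance of the other end from the bin in kb (x axis, steps of 100 kb, negative towards lower positions) in 4 captured bins, 1 line per library. A, chr8:24250000-24259999, leans to lower positions in each library; B, chr2:147180000-147189999, has the longest mean reach among the 9 bins with at least 100 contacts in each library; C, chr2:157380000-157389999, leans to lower positions in Samples 4 and 5 only; D, chr1:59300000-59309999, leans to lower positions in Sample 3 and to higher positions in Samples 4 and 5.

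Neighbouring captured bins leaned alike over short separations. For adjacent captured bins (10 kb, 1345 pairs) r of the sidedness was 0.46 in Sample 3, 0.59 in Sample 4 and 0.54 in Sample 5. At 60 to 100 kb (3913 pairs) it was 0.33, 0.15 and 0.14, and at 110 to 200 kb (7259 pairs) 0.22, 0.041 and 0.033. In Sample 3 the likeness thus extended farther along the chromosome. At 510 to 1000 kb r was close to 0 in each library (-0.017, -0.017 and -0.013). Adjacent bins share a library and much of the region they can reach, so r was also taken between a bin in Sample 4 and its neighbour in Sample 5. It was 0.54 for adjacent bins and 0.031 at 110 to 200 kb, about as within a library.

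Pairs of captured bins at moderate separation leaned apart more often than together in Samples 4 and 5. A pair leans apart when the lower bin leans to lower and the upper bin to higher positions, each against its expected share, and leans together in the opposite case. At 20 to 50 kb, 21.2% of 3108 pairs leaned apart and 14.6% together in Sample 4, and 23.1% and 15.2% in Sample 5. In Sample 3 the shares were 17.4% and 17.0%. At 110 to 200 kb, 26.9% leaned apart and 21.9% together in Sample 4, 27.8% and 22% in Sample 5, and 20.7% and 21.9% in Sample 3. At 510 to 1000 kb leaning together was the more frequent in Sample 3 (28.2% against 23.2%). In Samples 4 and 5 the shares differed little there (25.8% against 24.9%, and 25.2% and 25.2%). Pairs of bins overlap in the bins they are made of, so these shares are given without a test.

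**Figure D5:**
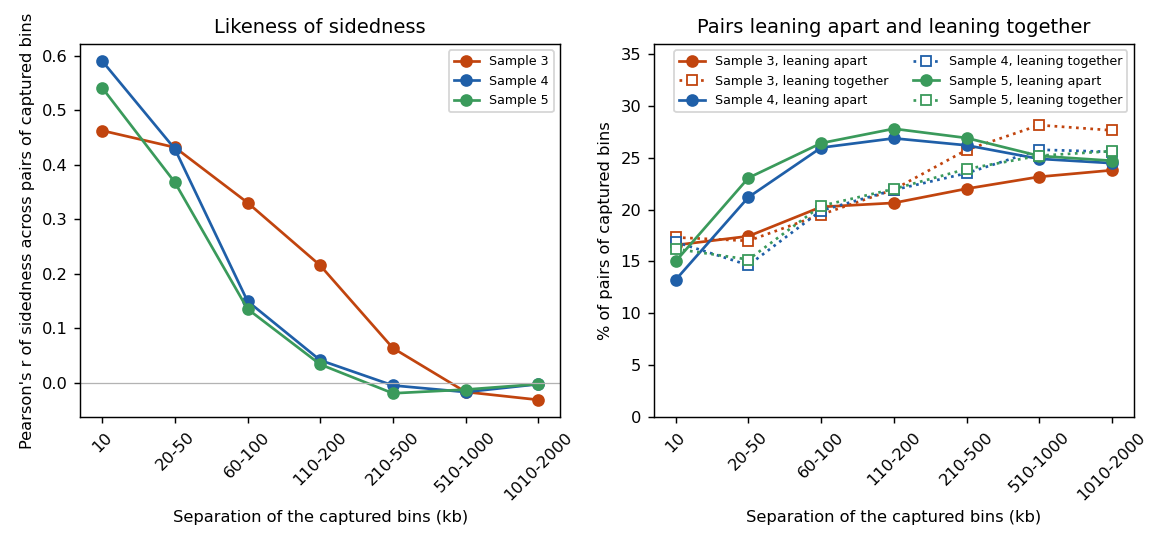
Left, Pearson's r of the sidedness of pairs of captured bins (y axis) by their separation in kb (x axis), 1 colour per library. Right, percentage of pairs that lean apart (filled circles) and that lean together (open squares). The likeness of Sample 3 extends farther, and in Samples 4 and 5 leaning apart exceeds leaning together from 20 to 500 kb.

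The side to which a bin leaned was also seen in di-tags that were not among the contacts. Di-tags with both ends captured are separate di-tags, and their sidedness was computed against an expected share of their own. In bins with at least 20 such di-tags it correlated with that of the contacts of the same bin with r = 0.36 over 4090 bins in Sample 3, 0.48 over 2783 in Sample 4 and 0.41 over 2096 in Sample 5. Of the called bins with enough such di-tags, 200 of 238 (84.0%), 224 of 253 (88.5%) and 108 of 128 (84.4%) leaned the same way. Over all bins with enough such di-tags the shares were 62.9%, 65.9% and 64.2%. Raw shares, without the expected shares, correlated with r = 0.16, 0.026 and -0.0052. These correlations leave out the whole expected share, and no part of it was left out alone.

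By distance, r of the sidedness between Samples 4 and 5 was higher for far than for near contacts. In bins with at least 8 contacts of a distance class in each library, r was 0.52 for contacts of 20 to 50 kb (811 bins), 0.62 for 200 to 500 kb (3067 bins) and 0.73 for 1 to 2 Mb (180 bins). For Samples 3 and 4 it was 0.30, 0.25 and 0.23. The bins differ between the classes. The SD of sidedness beyond sampling error also differed between contacts of 20 to 50 kb and of 1 to 2 Mb. It was 13.4 and 19.3 points in Sample 4, 14.0 and 19.5 in Sample 5, and 9.52 and 7.85 in Sample 3. These values of r were not corrected for that, and its part in them was not tested.

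Distal bins are the 209502 covered bins that were not captured. Contacts reached 130692 of them in Sample 3 (62.4%), 121544 in Sample 4 (58.0%) and 115371 in Sample 5 (55.1%). Contacts from at least 2 captured bins were found at 92145 (44.0%), 79334 (37.9%) and 71561 (34.2%) distal bins. At least 10 captured bins contacted 16576, 6504 and 4115, and the highest numbers were 66, 36 and 34. Sample 3 also had the most contacts, and these numbers were not adjusted for that. In all 3 libraries together, 50555 distal bins (24.1%) were contacted by at least 2 captured bins in each, 2821 by at least 10 and 80 by at least 20.

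The number of captured bins that contacted a distal bin largely went with how many there were to contact it. Across distal bins it correlated with the number of captured bins within 2 Mb with r = 0.77, 0.73 and 0.71. Distal bins with at least 10 captured bins had a median of 74, 86 and 89 captured bins within 2 Mb, against 21 over all distal bins. Where at least 2 captured bins contacted a distal bin, they lay on both sides of it in 74.1%, 72.2% and 70.6% of cases. They spanned a median of 1500 kb in Sample 3, 910 kb in Sample 4 and 830 kb in Sample 5, without adjustment for the numbers of contacts.

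Few distal bins passed a test for more contacts than expected from this setting. The contacts of each of 163021 distal bins with at least 10 trans ends in each library were compared with the sum of those expected from all captured bins within 2 Mb. In a one-sided exact Poisson test, 510 bins passed for Sample 3 (0.313%), 252 for Sample 4 (0.155%) and 133 for Sample 5 (0.0816%). At an unadjusted p under 0.05 there were 9321, 8848 and 8091 of the 163021. Counts are low whole numbers, so without any excess this exact test can pass fewer than 0.05 of the bins. The share that it would pass was not computed. The median expected count was only 2.11, 1.48 and 1.25 contacts, so that most distal bins could not show a moderate excess at this depth. In 7787 distal bins with at least 10 expected contacts in each library, the ratio of observed to expected contacts correlated with r = 0.59 between Samples 4 and 5, 0.38 between Samples 3 and 4 and 0.36 between Samples 3 and 5. Distal bins are not captured by definition, which caps their total of ends below the threshold in at least 1 library.

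In all 3 libraries 5 distal bins were called (0.00307%). Other settings moved the number from 1 (window of 20 kb to 1 Mb) to 85 (equal visibility), and the number of bins tested was not held fixed. Of the 5 named, 4 were called again with the 95th percentile and with equal visibility, 3 with a window of 50 kb to 2 Mb, 2 with the 85th percentile and 1 with a window of 20 kb to 1 Mb. Leaving out 1 library could not remove a call among the 5, since each library was tested alone and a call needed every library used. The bin chr15:76020000-76029999 had the highest ratio. It had 81 contacts from 43 captured bins in Sample 3, 45 from 19 in Sample 4 and 40 from 20 in Sample 5, where 21.1, 17.9 and 12.4 were expected. The ratios were 3.84, 2.52 and 3.22, and 11 captured bins contacted it in every library. It kept its call with the 95th and the 85th percentile, with the window of 20 kb to 1 Mb and with equal visibility. With the window of 50 kb to 2 Mb it lost its call. This bin reached the captured threshold in Sample 3, with 187 ends, but not in the others. In all 3 libraries most of its contacts came from captured bins at higher positions (54 of 81, 33 of 45 and 30 of 40).

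The bin chr8:87330000-87339999 had 37, 30 and 29 contacts against 16.8, 12.2 and 9.04 expected. They came from 20, 14 and 6 captured bins. Most came from higher positions in Sample 3 (22 of 37) but from lower positions in Samples 4 and 5 (19 of 30 and 23 of 29). The bin chr8:74150000-74159999 had 45, 33 and 33 contacts against 22.5, 13.8 and 11.4 expected, and 35, 27 and 26 of them came from lower positions. The bin chr17:56840000-56849999 had 45, 37 and 31 contacts (23.2, 16.4 and 12.1 expected) from 25, 18 and 15 captured bins. The bin chr10:79290000-79299999 had 69, 43 and 45 contacts (38.3, 21.8 and 17.1 expected) from 40, 18 and 18 captured bins. Its ratio was thus 1.80 in Sample 3, 1.97 in Sample 4 and 2.63 in Sample 5. Without Sample 3, 26 distal bins were called (0.0159% of those tested). Of these, 22 had more contacts than expected in Sample 3. So did 40.1% of all tested distal bins, and 46.8% of those with at least 10 expected contacts there. The median ratio over the 26 bins was 2.89 in Sample 4 and 3.22 in Sample 5, by which they were chosen, and 1.54 in Sample 3. Without Sample 4 there were 9 calls and without Sample 5 there were 24.

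Single pairs of a captured and a distal bin were mostly seen once. The contacts fell on 605832, 403627 and 342384 pairs of bins, of which 80.4%, 79.8% and 82.0% held 1 contact. At least 2 contacts in each library were found at 8609 pairs with a tested distal bin. Of these, 58.8% were under 50 kb apart and 288 were at least 200 kb apart. Against 4702059 possible pairs, 42 pairs passed for Sample 3 (0.000893%), 76 for Sample 4 (0.00162%) and 86 for Sample 5 (0.00183%) by the exact Poisson test with Benjamini-Hochberg adjustment. No pair was called in all 3 (0%). Of the 8609 pairs with at least 2 contacts in each library, 241 had an unadjusted p under 0.05 in each. The choice by at least 2 contacts already favours a small p, so the 241 are a description. In single libraries 43994 of 116897 pairs so chosen passed in Sample 3, 29062 of 79142 in Sample 4 and 24089 of 59825 in Sample 5.

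Samples 4 and 5 shared 9 called pairs, Samples 3 and 5 shared 1, and Samples 3 and 4 none. The 9 pairs were named after their values were seen. The captured bin chr1:175200000-175209999 had 8 contacts with chr1:176250000-176259999 in Sample 4 and 18 in Sample 5, with 0.0235 and 0.0310 expected. Sample 3 had none, with 0.0260 expected. With the next bin, chr1:176260000-176269999, it had 7 and 10 contacts and again none in Sample 3. The captured bin chr7:134720000-134729999 had 19 and 22 contacts with chr7:134750000-134759999 and 1 in Sample 3, where 1.83 were expected. The captured bin chr14:8820000-8829999 had 15 and 13 contacts with chr14:8840000-8849999 and 1 in Sample 3, where 0.413 were expected. Of the other 5 pairs, Sample 3 had no contact at 3 and 3 contacts at each of the rest. Expected counts in Sample 3 were at most 1.83, so that a shortfall against them could not be detected at this depth. The difference in counts between libraries was not tested at these pairs.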

How the data were processed

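CHi-C di-tags of Samples 3, 4 and 5 were analysed. The authors deposited lists of di-tags in which a line places each read of 1 di-tag by chromosome, position and strand. These are positions and carry no score, count or other level, so the measure is the number of lines. With HiCUP, the authors cut reads at ligation junctions, mapped each read on its own, kept pairs with unique alignments, discarded artefacts and removed duplicates. The submitters' processing notes name Bowtie 1.1.0 and mm9, and coordinates are those of the lists. Lists with duplicates retained were used as an alternative. For minus-strand reads, the sources used here do not state which base is listed.

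Captured bins and contacts were found as the report states, on chromosomes 1 to 19. The expected count of a pair of bins was the product of a captured-bin factor, a factor for each 10 kb of distance fitted in each library, and the visibility of the non-captured bin (its trans ends summed over 3 libraries). Side shares were tested by two-sided exact binomial tests, distal bins and pairs by one-sided exact Poisson tests, and libraries against each other by Fisher's exact test. Benjamini-Hochberg adjustment was made over all bins or possible pairs tested, and a call needed an adjusted p under 0.05 in each library. These tests cover counting error only, and di-tags that share fragments are not independent. The libraries formed 1 group of 3 samples.

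The captured bins, contacts and lists were chosen with earlier results of these data known. Sites were named by rule: the 4 captured bins of longest and shortest mean reach among those with 100 contacts in each library, up to 4 bins of strongest sidedness in each direction with the same minimum, up to 6 distal bins and 6 pairs at least 200 kb apart called in all libraries, and the 3 captured bins with the highest smallest count (chr11:67010000-67019999, chr8:24250000-24259999 and chr10:76030000-76039999). The rule gave 1 bin for sidedness and no pair. Tests on summed libraries, Fisher's tests, thinning to equal contacts, and correlations under other expected shares were added after seeing the data.

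The tests were run on simulated data with known shifts before use. Most simulated leans of 25 points were not called in all 3 libraries. Python 3.11.15, numpy 2.4.6, scipy 1.17.1, pandas 2.3.3 and matplotlib 3.10.9 were used.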

Additional observations from a re-analysis of the deposited data

How the results depend on the processing

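The sign of the difference in reach between contacts and cis di-tags without a captured end did not change under any alternative. The median distance of 223 kb became 299 kb with a window of 50 kb to 2 Mb, and the share of contacts of 6.49% became 9.05% with duplicates retained. Leaving out 1 library gave 183 to 244 kb for the median, 5.55% to 7.27% for the share and -32.7 to -21.4 kb for the difference. The 23 captured bins called in all libraries became 48 with the 95th percentile, 50 with bins of 20 kb, 38 with equal visibility, 73 with an expected share of 0.5, 187 with all cis di-tags against 0.5 and 3 at an adjusted p under 0.001. The contacts of 3 libraries summed gave 1895 calls (21.1%), a test in which 1 library can decide. Leaving out 1 library gave 42 of 9534 to 243 of 9215 tested bins, and the main 23 were 0.256% of 8995. The number of captured or distal bins tested was not held fixed across the settings. The counts of calls given here without it are not rates. The 5 distal bins became 12 with the 95th and 2 with the 85th percentile, 30 with bins of 20 kb, 3 with a window of 50 kb to 2 Mb, 1 with 20 kb to 1 Mb, 85 with equal visibility and 1 at an adjusted p under 0.001, and 9 to 26 when 1 library was left out. No pair was called in all libraries, 2 with bins of 20 kb, and 0 to 9 when 1 library was left out. The causes were not tested. No paired analysis was possible because no second group shares the replicate numbers; the classes of di-tags were compared within each library. The tested bins had a median of 48, 37 and 30 contacts in Samples 3, 4 and 5, and no lean under 11.7, 14.0 and 15.0 points was called. A bin that was not called may still lean to 1 side, and the part of depth in the number of calls was not tested.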
